A study of Mus musculus with 16 samples.

Results

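Matrix metalloproteinases (MMPs), ADAM and ADAMTS proteases, ADAMTS-like proteins and the tissue inhibitors of metalloproteinases (TIMPs) were followed in mouse embryonic fibroblasts (MEFs) during the first days of reprogramming to pluripotency. Members were all genes whose symbol is *Mmp*, *Timp*, *Adam*, *Adamts* or *Adamtsl* followed by a number and at most 1 letter. This gave 55 of the 18990 genes in the table, of which 46 had a mean of at least 0 log2 CPM, where CPM is a read count scaled to the size of its library, over the 16 libraries and were tested together with the 14028 genes that passed the same limit. The rule used symbols alone and no measured value, but the members were chosen with earlier results of these data known.

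The cells were primary wild-type MEFs of the BL6 strain, reprogrammed at passage 2. All groups carried lentiviruses for a doxycycline-inducible cassette of *Oct4*, *Sox2*, *Klf4* and *c-Myc* (tet-STEMCCA) and for its transactivator rtTA, and all were transfected with pooled small interfering RNAs (siRNAs) at 40 nM. Every group, nt control included, was kept in 2 μg/mL doxycycline, 3 μM chiron (a GSK3 inhibitor), 0.25 μM Alk5i (a TGF-β receptor inhibitor), 50 μg/mL ascorbic acid and LIF. The 8 groups were the nt (non-targeting) control, si*Wdr5*, si*Brca1* and si*Bard1*, each at day 3 and at day 6 of doxycycline, with 2 libraries per group from independent experiments. Whole cultures were sequenced, so that a lower share of cells expressing a gene and less RNA per cell cannot be told apart.

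MMPs are zinc-dependent enzymes that cut collagens, gelatin, proteoglycans and many other proteins outside the cell, and most are secreted as inactive proenzymes. ADAMs are membrane-bound relatives that release the outer parts of receptors, growth factors and adhesion proteins. ADAMTS proteases are secreted and bind the matrix, where subgroups trim procollagens or cut large proteoglycans such as versican and aggrecan, while ADAMTS-like proteins share their ancillary domains and lack the protease. TIMPs block the active site of these enzymes, and TIMP3 also inhibits several ADAMs and ADAMTS proteases. Fibroblasts are a main source of these proteins, and in reprogramming they pass from a mesenchymal to an epithelial state.

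*Mmp13* (chromosome 9, 7272514 to 7283331), *Mmp3* (7445822 to 7455975), *Mmp10* (7502352 to 7510240) and *Mmp27* (7571396 to 7581885) lie on the plus strand of the same stretch of chromosome 9 (mm10). Genes of this cluster are textbook targets of AP-1, the transcription factor made of JUN and FOS proteins. The promoters of 3 of them are shown because these genes are among the 5 that rose most over the time course and parted from each other between the knockdowns. Each sequence is the plus strand from 250 bases before the annotated start (RefSeq, GRCm38.p6), read 5′ to 3′, with the AP-1 element TGANTCA in capitals.
*Mmp3*, chr9:7445572-7445871: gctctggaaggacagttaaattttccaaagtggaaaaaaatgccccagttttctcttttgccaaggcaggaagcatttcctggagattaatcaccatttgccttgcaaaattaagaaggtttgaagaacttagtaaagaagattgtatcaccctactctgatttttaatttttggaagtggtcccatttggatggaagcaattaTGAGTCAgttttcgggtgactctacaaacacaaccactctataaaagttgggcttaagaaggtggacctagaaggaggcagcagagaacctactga
*Mmp10*, chr9:7502092-7502391: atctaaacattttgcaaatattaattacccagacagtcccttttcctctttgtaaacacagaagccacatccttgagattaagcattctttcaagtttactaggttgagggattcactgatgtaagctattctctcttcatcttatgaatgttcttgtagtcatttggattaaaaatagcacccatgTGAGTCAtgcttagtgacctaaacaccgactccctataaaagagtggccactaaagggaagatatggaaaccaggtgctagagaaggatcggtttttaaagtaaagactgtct
*Mmp13*, chr9:7272264-7272563: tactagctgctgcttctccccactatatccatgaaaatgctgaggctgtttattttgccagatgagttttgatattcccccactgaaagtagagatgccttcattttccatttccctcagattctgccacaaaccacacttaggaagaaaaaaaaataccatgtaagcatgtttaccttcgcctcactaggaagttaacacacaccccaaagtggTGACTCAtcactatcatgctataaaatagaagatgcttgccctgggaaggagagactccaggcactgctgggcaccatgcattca
Counted from the annotated start, the element begins at position −46 in *Mmp3*, −63 in *Mmp10* and −35 in *Mmp13*, and each of the 3 also holds a TATAAA between it and the start. Promoters of 35 members could be matched. On either strand TGANTCA occurred in 4 of these 35 genes (the 3 above and *Adam19*) and in 7.81% of all 32851 promoters of this length. TATAAA also occurred in 4 of them (the same 3 and *Adamts1*), against 13.6% of all promoters, and the GC box GGGCGG in 25, against 35.7%.

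The libraries held 11169738 to 26832534 reads in the table (median 14618683.5), so that 3 reads stood for 0.115 to 0.260 CPM. At day 3 each siRNA lowered its own target, by a log2 fold change of −1.31 for *Wdr5*, −1.57 for *Brca1* and −0.62 for *Bard1*. The targets also fell in other knockdowns. *Wdr5* was at −0.87 (SE 0.10, adjusted p = 2.48e-05) in si*Brca1* and −0.48 (SE 0.10, adjusted p = 0.00900) in si*Bard1*, and *Brca1* at −0.86 (SE 0.22, adjusted p = 0.00796) in si*Wdr5*. *Bard1* was at −1.03 (SE 0.19, adjusted p = 0.00108) in si*Wdr5* and −1.38 (SE 0.19, adjusted p = 7.26e-05) in si*Brca1*. Both estimates were further down than in its own knockdown, and a test of these differences is not given here. *Bard1* had 18.0 and 20.8 CPM in si*Bard1*, 13.9 and 15.3 in si*Wdr5* and 14.4 and 9.07 in si*Brca1*. *Brca1* did not pass in si*Bard1*, at −0.38 (SE 0.22, adjusted p = 0.258). At day 6 none of the 3 targets passed the test in its own knockdown, with adjusted p = 0.189 for *Wdr5*, 0.988 for *Brca1* and 0.853 for *Bard1*. Marker lists for the cells of origin moved with the groups. The summed level of 10 fibroblast markers was 7754 to 8748 CPM in the nt control at day 3, 13704 to 14235 in si*Wdr5*, 11560 to 12717 in si*Brca1* and 9652 to 11240 in si*Bard1*, and none of the 10 was under 3 reads throughout. *Col1a1*, *Vim* and *Col1a2* held most of each sum, and not every marker of the list was higher. In si*Brca1* *Dcn* had 22.2 and 21.2 CPM against 31.7 and 30.4 in the nt control, and *Col3a1* 727 and 482 against 780 and 769. *Dcn* was also lower in si*Bard1*, at 23.5 and 21.5 CPM. Of the 4 smooth muscle markers, which are also raised in activated fibroblasts, all rose in each knockdown at day 3. The 8 epithelial markers summed to 63.6 to 96.9 CPM in all day 3 libraries and to 416 to 804 CPM in all day 6 libraries. These ranges pool groups in which single markers differed. At day 3, 4 of the 8 passed as lower and 1 as higher in si*Wdr5*, 2 and 2 in si*Brca1*, and 0 and 1 in si*Bard1*. *Cdh1* had 41.5 and 29.4 CPM in the nt control and 12.6 and 12.7 in si*Wdr5*. *Krt19* went the other way, from 28.7 and 30.9 to 45.1 and 44.5. At day 6, 5 passed as lower and 0 as higher in si*Wdr5*, and none passed in the other knockdowns. The macrophage markers summed to at most 23.9 CPM in any library (5 of 8 markers in the table), the endothelial markers to at most 59.9 CPM (5 of 6) and the neutrophil and platelet markers to at most 19.2 CPM (2 of 5). How far these shifts account for the changes of the members was not tested.

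Per kilobase of exon, *Timp1* and *Timp2* led the family in control cells at day 3, while *Timp3* was at 12.4 and *Timp4* at 0.118 CPM per kilobase. At day 3, *Timp1* (128 CPM per kilobase) and *Timp2* (107) stood above *Adam9* (41.05), *Mmp14* (38.2), *Mmp2* (37.7) and *Adam10* (26.6), each a mean of 2 libraries. At day 6 the order was *Timp2* (123), *Mmp2* (95.1), *Mmp3* (88.6), *Timp1* (83.97) and *Mmp14* (50.5). *Mmp3* had been at 5.23 CPM per kilobase at day 3.

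**Figure D1:**
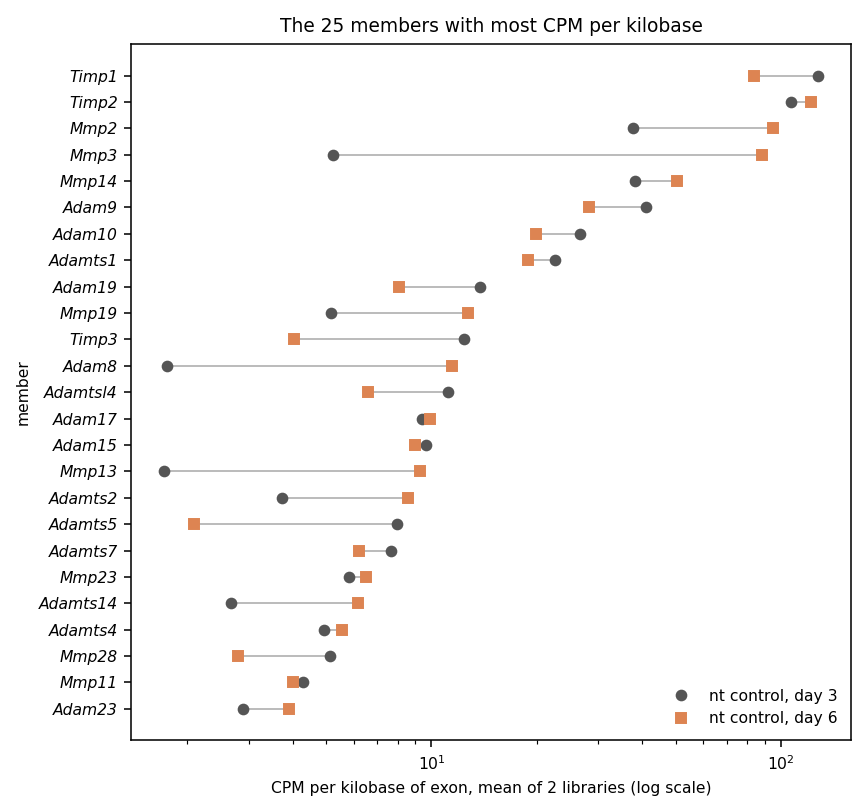
Level of the 25 members with most CPM per kilobase of exon in the nt control at day 3 (circles) or day 6 (squares), each the mean of 2 libraries, on a log axis. *Mmp3*, *Adam8* and *Mmp13* lie far to the right at day 6, while *Timp3* and *Adamts5* lie to the left.

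At day 3 most of the tested members that changed were higher after knockdown. In si*Wdr5* 29 of the 46 rose and 1 fell (limma, adjusted p < 0.05 over 14028 genes), whereas 18.3% of all genes rose and 16.8% fell. In si*Brca1* 25 rose and 4 fell, against 25.4% and 21.8% of all genes. In si*Bard1* 13 rose and 2 fell, against 8.67% and 5.87%, and this count was 4 to 9 when any 1 of its or the control's libraries was left out. The median log2 fold change of the members was 0.65 in si*Wdr5*, 0.46 in si*Brca1* and 0.23 in si*Bard1*, beside medians of −0.04, 0.00 and −0.02 over all genes. With the added limit of an absolute log2 fold change above 1, 11 members passed in si*Wdr5* (7.05% of all genes), 13 in si*Brca1* (13.4%) and 2 in si*Bard1* (2.24%). The 3 comparisons share the nt control libraries. In each of them 12 members rose (*Timp1*, *Timp2*, *Timp3*, *Mmp14*, *Mmp17*, *Adam9*, *Adam19*, *Adam23*, *Adamts5*, *Adamts6*, *Adamts9* and *Adamtsl3*) and 1 fell (*Adamts20*), and 11 passed in no knockdown. The share of all genes that passed in all 3, or in none, was not counted, so these overlaps have no background beside them.

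**Figure D2:**
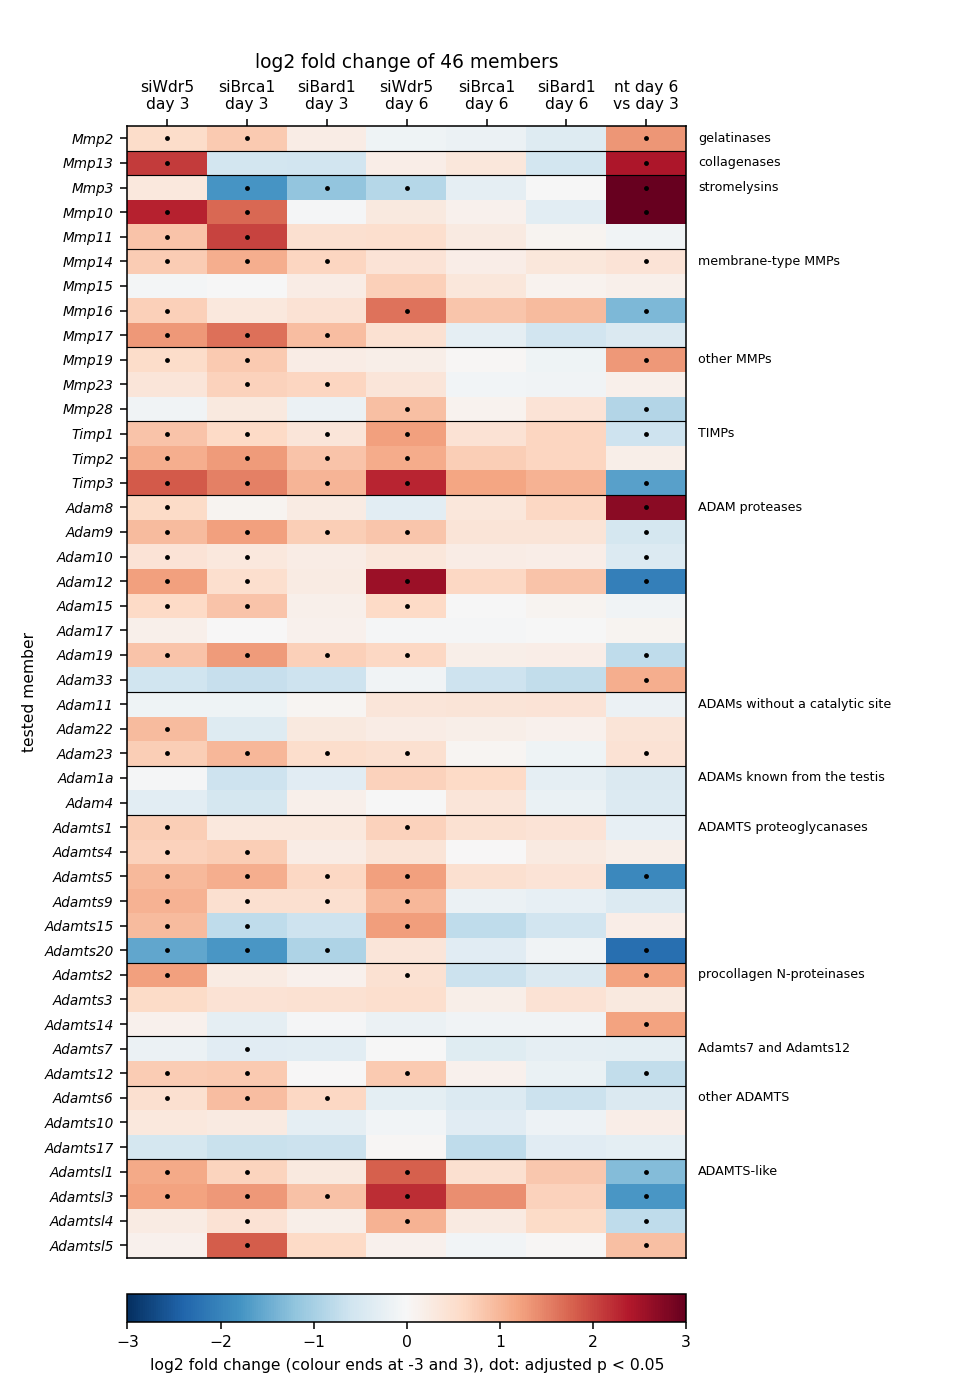
Log2 fold change of the 46 tested members, grouped by role, for each knockdown against the nt control of the same day and for the nt control at day 6 against day 3. Dots mark adjusted p < 0.05. The 3 day 3 columns and the si*Wdr5* day 6 column are mostly red, the TIMP rows are red in all 6 knockdown columns, and the si*Brca1* and si*Bard1* day 6 columns carry no dot.

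The 3 tested inhibitors rose in every knockdown at day 3, against 18.3% of all genes in si*Wdr5*, 25.4% in si*Brca1* and 8.67% in si*Bard1*. *Timp3* (chromosome 10, 86300372 to 86349506), which binds to the matrix, had 96.3 and 106 CPM in the nt control, 349 and 381 in si*Wdr5*, 274 and 299 in si*Brca1* and 212 and 199 in si*Bard1*. The 8 libraries fall into 4 groups that do not overlap, in the order nt control, si*Bard1*, si*Brca1*, si*Wdr5*. Its log2 fold change was 1.85 (SE 0.10, adjusted p = 4.47e-07) in si*Wdr5*, 1.50 (SE 0.10, adjusted p = 7.35e-07) in si*Brca1* and 1.02 (SE 0.10, adjusted p = 1.04e-04) in si*Bard1*. Of its exon bases 21.3% lie opposite *Syn3*, and the counting's use of strand is not given in the sources used here. *Timp2* (chromosome 11, 118301069 to 118355740), which also takes part in the activation of pro-MMP2 by MMP14, had 399 and 437 CPM in the nt control, 858 and 918 in si*Wdr5*, 958 and 1063 in si*Brca1* and 797 and 709 in si*Bard1*. All 6 knockdown libraries lay above both controls, with log2 fold changes of 1.09 (SE 0.12, adjusted p = 2.14e-05), 1.27 (SE 0.12, adjusted p = 4.37e-06) and 0.85 (SE 0.12, adjusted p = 5.74e-04) in si*Wdr5*, si*Brca1* and si*Bard1*. *Timp1* (X, 20870166 to 20874735), the inducible soluble inhibitor, had 114 and 114 CPM in the nt control, 204 and 208 in si*Wdr5*, 178 and 169.6 in si*Brca1* and 156 and 138 in si*Bard1*. It rose by 0.85 (SE 0.10, adjusted p = 4.31e-05), 0.61 (SE 0.10, adjusted p = 2.79e-04) and 0.36 (SE 0.10, adjusted p = 0.0295) on the log2 scale, and its call in si*Bard1* was lost in 6 of 15 alternatives. *Timp4* had at most 23 reads in any library and was below the limit for testing.

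**Figure D3:**
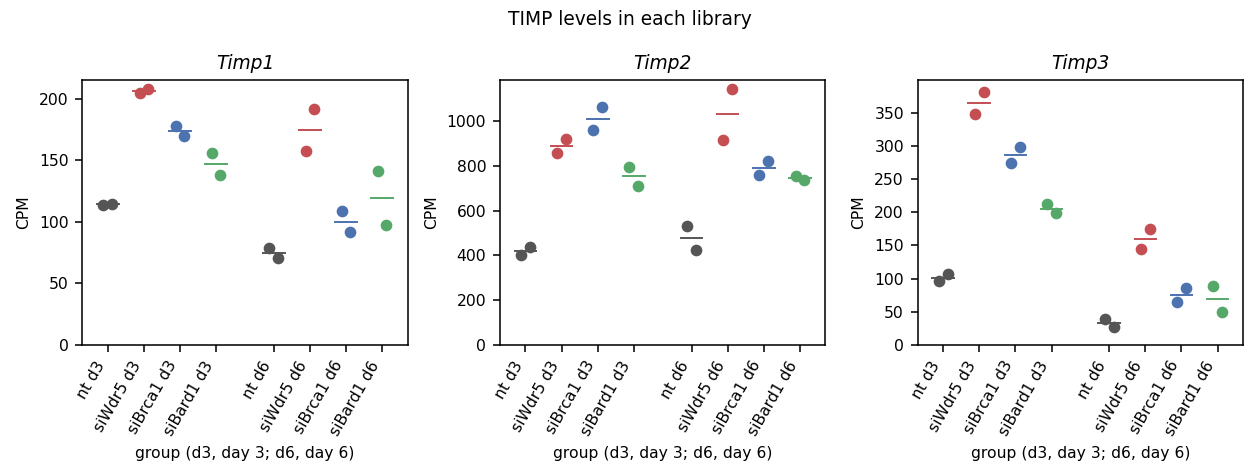
CPM of *Timp1*, *Timp2* and *Timp3* in each library (points) and the group mean (lines), with day 3 groups at left and day 6 groups at right of each panel. At day 3 all 6 knockdown libraries lie above both nt control libraries for each gene, and *Timp3* spans 96.3 to 381 CPM.

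The genes of the chromosome 9 cluster did not move together. *Mmp13*, a collagenase that cuts fibrillar collagen, had 5.22 and 3.96 CPM in the nt control, 16.6 and 23.1 in si*Wdr5*, 4.49 and 2.18 in si*Brca1* and 2.66 and 3.46 in si*Bard1*. Both si*Wdr5* libraries stood above the other 6, and its log2 fold change there was 2.11 (SE 0.31, adjusted p = 2.04e-04), while si*Brca1* gave −0.54 (SE 0.31, adjusted p = 0.162) and si*Bard1* −0.58 (SE 0.31, adjusted p = 0.212). *Mmp10*, a stromelysin with broad matrix substrates, rested on few reads at this day, with 5 and 6 reads in the nt control, 27 and 44 in si*Wdr5*, 26 and 15 in si*Brca1* and 3 and 9 in si*Bard1*. It rose by 2.32 (SE 0.43, adjusted p = 0.00125) in si*Wdr5* and 1.73 (SE 0.43, adjusted p = 0.00490) in si*Brca1*, and in si*Bard1* the value was −0.05 (SE 0.43, adjusted p = 0.959). With 1 CPM added to each value, in place of the deposited prior, both changes were smaller, at 1.28 and 0.87. *Mmp3* (stromelysin-1), which also activates other pro-MMPs, had 11.3 and 7.55 CPM in the nt control, 11.5 and 11.7 in si*Wdr5*, 3.53 and 2.11 in si*Brca1* and 4.34 and 3.77 in si*Bard1*. It fell in si*Brca1*, at −1.76 (SE 0.26, adjusted p = 1.20e-04), and in si*Bard1*, at −1.19 (SE 0.26, adjusted p = 0.00918), and was 0.33 (SE 0.26, adjusted p = 0.348) in si*Wdr5*. All 4 si*Brca1* and si*Bard1* libraries lay below both controls for this gene, and its call in si*Bard1* was lost in 4 of 15 alternatives.

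**Figure D4:**
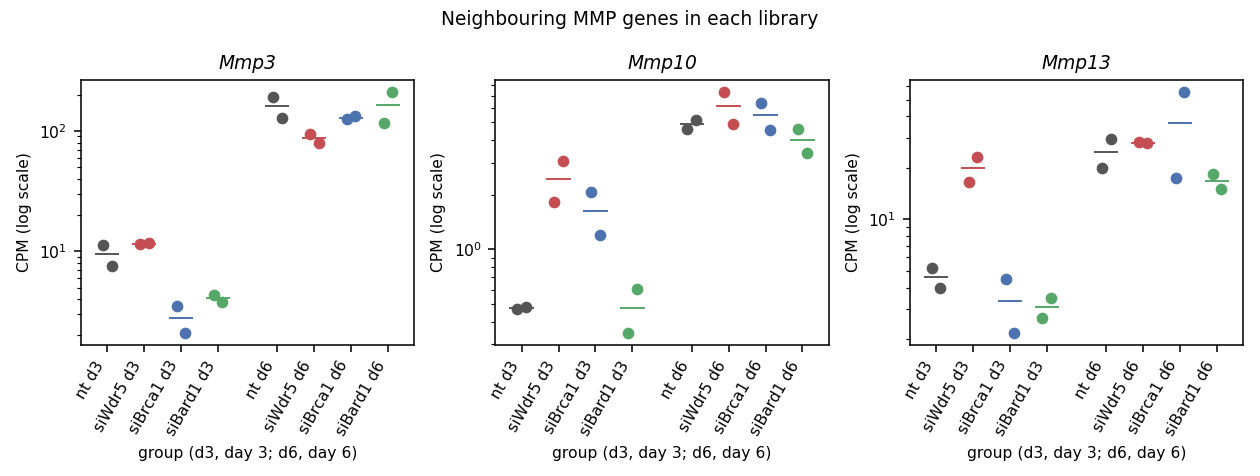
CPM of *Mmp3*, *Mmp10* and *Mmp13* in each library (points, log axis) with group means (lines), day 3 at left and day 6 at right of each panel. At day 3 *Mmp13* is high in si*Wdr5* alone among the groups drawn, *Mmp3* is low in si*Brca1* and si*Bard1*, and all 3 genes are higher in the nt control at day 6.

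*Mmp11* (stromelysin-3), an MMP activated inside the cell by furin, is named with the stromelysins and lies on chromosome 10. It had 12.5 and 11.3 CPM in the nt control, 22.3 and 20.7 in si*Wdr5*, 36.3 and 64.4 in si*Brca1* and 18.2 and 15.2 in si*Bard1*. It rose by 2.02 (SE 0.21, adjusted p = 9.59e-06) in si*Brca1*, where the 2 libraries differed widely, and by 0.86 (SE 0.21, adjusted p = 0.00637) in si*Wdr5*. *Mmp2*, the gelatinase of fibroblasts, had 131 and 123 CPM in the nt control, 181 and 194 in si*Wdr5*, 193 and 248 in si*Brca1* and 163 and 137 in si*Bard1*. It rose by 0.56 (SE 0.13, adjusted p = 0.00446) in si*Wdr5* and 0.78 (SE 0.13, adjusted p = 2.54e-04) in si*Brca1*, with 0.23 (SE 0.13, adjusted p = 0.232) in si*Bard1*. The other gelatinase, *Mmp9*, had 6 and 4 reads in the nt control and 21 and 24 in si*Wdr5*. It lay below the limit for testing. In the model of every gene in the table its log2 fold change was 1.84 (SE 0.32, adjusted p = 0.00648) in si*Wdr5*.

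Of the 4 tested membrane-type MMPs, 3 rose in si*Wdr5*, 2 in si*Brca1* and 2 in si*Bard1*, against 18.3%, 25.4% and 8.67% of all genes. *Mmp14* (MT1-MMP; chromosome 14, 54431612 to 54445364), the collagenase of the cell surface and the activator of pro-MMP2, had 219 and 237 CPM in the nt control, 373 and 403 in si*Wdr5*, 455 and 513 in si*Brca1* and 389.8 and 327 in si*Bard1*. All 6 knockdown libraries were above both controls. It changed by 0.77 (SE 0.12, adjusted p = 2.80e-04) in si*Wdr5*, 1.09 (SE 0.12, adjusted p = 1.25e-05) in si*Brca1* and 0.65 (SE 0.12, adjusted p = 0.00309) in si*Bard1*. *Mmp17*, a membrane-type MMP held by a lipid anchor, had 3.50 and 5.44 CPM in the nt control, 10.5 and 10.9 in si*Wdr5*, 11.8 and 16.2 in si*Brca1* and 9.11 and 7.51 in si*Bard1*. Its changes were larger, at 1.29 (SE 0.23, adjusted p = 7.82e-04), 1.66 (SE 0.23, adjusted p = 6.88e-05) and 0.92 (SE 0.23, adjusted p = 0.0163) in the same order. *Mmp16*, which like MMP14 can activate pro-MMP2, had 10.95 and 11.2 CPM in the nt control, 17.2 and 19.1 in si*Wdr5*, 13.6 and 14.1 in si*Brca1* and 13.1 and 16.9 in si*Bard1* and rose in si*Wdr5*, by 0.71 (SE 0.16, adjusted p = 0.00347). *Mmp15* passed in no comparison.

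Of the 3 other tested MMPs, *Mmp19* had 17.7 and 18.8 CPM in the nt control, 25.1 and 28.5 in si*Wdr5*, 28.8 and 34.6 in si*Brca1* and 22.1 and 20.4 in si*Bard1* and rose by 0.55 (SE 0.14, adjusted p = 0.00714) in si*Wdr5* and 0.79 (SE 0.14, adjusted p = 3.85e-04) in si*Brca1*. It has 22.3% of its exon bases opposite *Tmem198b*. *Mmp23*, a membrane protein released by furin, had 13.7 and 13.4 CPM in the nt control, 17.4 and 17.6 in si*Wdr5*, 22.1 and 21.4 in si*Brca1* and 23.97 and 18.8 in si*Bard1*. It rose by 0.68 (SE 0.14, adjusted p = 0.00158) in si*Brca1* and 0.65 (SE 0.14, adjusted p = 0.0103) in si*Bard1*, and si*Wdr5* gave 0.37 (SE 0.14, adjusted p = 0.0603). *Mmp28* passed in no knockdown at this day.

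Of the 8 tested ADAM proteases known to cut surface proteins, 6 rose in si*Wdr5*, 5 in si*Brca1* and 2 in si*Bard1*, and none fell. The shares of all genes were 18.3%, 25.4% and 8.67% higher and 16.8%, 21.8% and 5.87% lower. *Adam9* had 159.8 and 178 CPM in the nt control, 311 and 345 in si*Wdr5*, 348 and 450.3 in si*Brca1* and 287 and 281 in si*Bard1*, with all 6 knockdown libraries above both controls. It rose by 0.96 (SE 0.13, adjusted p = 9.58e-05), 1.23 (SE 0.13, adjusted p = 8.87e-06) and 0.75 (SE 0.13, adjusted p = 0.00206) in si*Wdr5*, si*Brca1* and si*Bard1*. *Adam19*, which can shed neuregulins, had 91.2 and 105 CPM in the nt control, 175 and 182 in si*Wdr5*, 224 and 254 in si*Brca1* and 175 and 148 in si*Bard1*. Its changes in the same order of groups were 0.86 (SE 0.12, adjusted p = 1.25e-04), 1.29 (SE 0.12, adjusted p = 4.28e-06) and 0.71 (SE 0.12, adjusted p = 0.00187). *Adam12*, a mesenchymal ADAM that can shed HB-EGF, had 34.8 and 38.8 CPM in the nt control, 85.2 and 87.4 in si*Wdr5*, 49.9 and 54.2 in si*Brca1* and 40.4 and 47.2 in si*Bard1*. It rose most in si*Wdr5*, by 1.23 (SE 0.12, adjusted p = 8.89e-06), and by 0.50 (SE 0.12, adjusted p = 0.00313) in si*Brca1*.

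The widely acting sheddases changed less. *Adam10*, the protease that opens Notch receptors, had 132 and 129 CPM in the nt control, 165 and 184 in si*Wdr5*, 160.2 and 167 in si*Brca1* and 145 and 159.5 in si*Bard1*. It rose by 0.42 (SE 0.10, adjusted p = 0.00659) in si*Wdr5* and 0.33 (SE 0.10, adjusted p = 0.0179) in si*Brca1*. *Adam17* (TACE), the sheddase of TNF and of several EGF receptor ligands, had 68.3 and 65.9 CPM in the nt control, 73.2 and 75.6 in si*Wdr5*, 65.2 and 70.4 in si*Brca1* and 74.8 and 71.8 in si*Bard1*. The si*Brca1* libraries overlap the controls, while those of si*Wdr5* and si*Bard1* lie a little above them, and its change was 0.15 (SE 0.10, adjusted p = 0.275) in si*Wdr5*, 0.01 (SE 0.10, adjusted p = 0.924) in si*Brca1* and 0.13 (SE 0.10, adjusted p = 0.424) in si*Bard1*. The 95% interval of the si*Wdr5* difference was −0.07 to 0.37. *Adam15* had 59.1 and 59.3 CPM in the nt control, 91.1 and 89.5 in si*Wdr5*, 104 and 112 in si*Brca1* and 77.2 and 56.5 in si*Bard1* and rose by 0.61 (SE 0.13, adjusted p = 0.00306) in si*Wdr5* and 0.86 (SE 0.13, adjusted p = 1.51e-04) in si*Brca1*, with 20.6% of its exon bases on the opposite strand of another gene. *Adam8*, an ADAM of leukocytes and activated cells, had 8.65 and 7.61 CPM in the nt control, 11.8 and 12.3 in si*Wdr5*, 7.59 and 9.56 in si*Brca1* and 9.74 and 9.49 in si*Bard1* and rose in si*Wdr5*, by 0.57 (SE 0.17, adjusted p = 0.0194).

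ADAM11, ADAM22 and ADAM23 lack a working catalytic site and act in adhesion. *Adam23* had 50.8 and 52.5 CPM in the nt control, 82.8 and 90.4 in si*Wdr5*, 86.4 and 122 in si*Brca1* and 74.9 and 72.9 in si*Bard1*, all 6 knockdown libraries above both controls, and rose by 0.74 (SE 0.14, adjusted p = 0.00123), 0.99 (SE 0.14, adjusted p = 8.61e-05) and 0.52 (SE 0.14, adjusted p = 0.0256) in si*Wdr5*, si*Brca1* and si*Bard1*. *Adam22* had 3.10 and 3.10 CPM in the nt control, 5.24 and 6.77 in si*Wdr5*, 2.20 and 2.53 in si*Brca1* and 3.99 and 3.62 in si*Bard1* and rose in si*Wdr5*, by 0.94 (SE 0.23, adjusted p = 0.00663). *Adam11*, *Adam33* and the testis genes *Adam1a* and *Adam4* passed in no knockdown.

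Among the ADAMTS proteoglycanases, 5 of 6 tested genes rose in si*Wdr5* and 1 fell. In si*Brca1* 3 rose and 2 fell, and in si*Bard1* 2 rose and 1 fell. Beside these stand 18.3%, 25.4% and 8.67% of all genes higher and 16.8%, 21.8% and 5.87% lower in si*Wdr5*, si*Brca1* and si*Bard1*. *Adamts5*, the main aggrecanase of mouse cartilage, had 85.1 and 86.4 CPM in the nt control, 163 and 176 in si*Wdr5*, 178 and 186 in si*Brca1* and 129 and 135 in si*Bard1*. The knockdown libraries did not overlap the controls, and it rose by 0.98 (SE 0.10, adjusted p = 1.28e-05), 1.08 (SE 0.10, adjusted p = 4.10e-06) and 0.62 (SE 0.10, adjusted p = 0.00147) in si*Wdr5*, si*Brca1* and si*Bard1*. *Adamts1*, a versican-cutting neighbour of *Adamts5* on chromosome 16, had 117 and 122 CPM in the nt control, 191 and 208 in si*Wdr5*, 172 and 128 in si*Brca1* and 151 and 146 in si*Bard1*. It rose by 0.74 (SE 0.13, adjusted p = 7.30e-04) in si*Wdr5*, with 0.31 (SE 0.13, adjusted p = 0.0592) in si*Brca1* and 0.31 (SE 0.13, adjusted p = 0.114) in si*Bard1*. *Adamts9* had 15.97 and 18.1 CPM in the nt control, 35.3 and 34.8 in si*Wdr5*, 24.6 and 22.5 in si*Brca1* and 22.7 and 25.1 in si*Bard1* and rose by 1.04 (SE 0.13, adjusted p = 6.66e-05), 0.47 (SE 0.13, adjusted p = 0.00862) and 0.49 (SE 0.13, adjusted p = 0.0239) in the 3 knockdowns in the same order. *Adamts4* had 22.1 and 25.3 CPM in the nt control, 36.5 and 40.4 in si*Wdr5*, 38.6 and 40.9 in si*Brca1* and 28.4 and 27.2 in si*Bard1*, and passed in si*Wdr5*, 0.70 (SE 0.12, adjusted p = 8.20e-04), and si*Brca1*, 0.75 (SE 0.12, adjusted p = 2.65e-04).

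The last pair of this subgroup went other ways. *Adamts15* had 7.0 and 7.15 CPM in the nt control, 14.2 and 13.1 in si*Wdr5*, 4.93 and 3.58 in si*Brca1* and 4.97 and 4.29 in si*Bard1*. It rose in si*Wdr5*, by 0.95 (SE 0.20, adjusted p = 0.00282), and fell in si*Brca1*, at −0.75 (SE 0.20, adjusted p = 0.00719), with −0.61 (SE 0.20, adjusted p = 0.0552) in si*Bard1*. *Adamts20* (chromosome 15, 94270163 to 94465418), known from the mouse coat mutant belted, had 14.1 and 15.2 CPM in the nt control, 4.68 and 5.38 in si*Wdr5*, 6.55 and 2.88 in si*Brca1* and 7.78 and 7.57 in si*Bard1*. It was the member that fell in every knockdown, at −1.55 (SE 0.29, adjusted p = 0.00114), −1.76 (SE 0.29, adjusted p = 2.50e-04) and −0.94 (SE 0.29, adjusted p = 0.0433) in si*Wdr5*, si*Brca1* and si*Bard1*. The si*Bard1* call was lost in 9 of 15 alternatives.

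Of the procollagen N-proteinases, which trim the amino ends of fibrillar procollagens, *Adamts2* had 34.2 and 35.3 CPM in the nt control, 80.8 and 82.3 in si*Wdr5*, 45.9 and 37.2 in si*Brca1* and 38.6 and 37.1 in si*Bard1*. Both si*Wdr5* libraries stood above the other 6, and it rose by 1.23 (SE 0.12, adjusted p = 1.10e-05) there, with 0.25 (SE 0.12, adjusted p = 0.101) in si*Brca1* and 0.12 (SE 0.12, adjusted p = 0.517) in si*Bard1*. *Adamts3* and *Adamts14* passed in no knockdown at day 3. *Adamts12* had 28.3 and 32.02 CPM in the nt control, 47.97 and 55.1 in si*Wdr5*, 47.6 and 56.8 in si*Brca1* and 30.1 and 30.5 in si*Bard1* and rose by 0.77 (SE 0.13, adjusted p = 5.41e-04) in si*Wdr5* and 0.79 (SE 0.13, adjusted p = 2.41e-04) in si*Brca1*. Its relative *Adamts7* fell in si*Brca1*, at −0.35 (SE 0.12, adjusted p = 0.0302). *Adamts6* had 8.38 and 8.12 CPM in the nt control, 10.7 and 12.2 in si*Wdr5*, 14.1 and 17.7 in si*Brca1* and 11.98 and 13.4 in si*Bard1* and rose by 0.47 (SE 0.17, adjusted p = 0.0399), 0.94 (SE 0.17, adjusted p = 4.42e-04) and 0.62 (SE 0.17, adjusted p = 0.0252) in si*Wdr5*, si*Brca1* and si*Bard1*. *Adamts10* and *Adamts17* passed in no knockdown.

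All 4 tested ADAMTS-like genes rose in si*Brca1*, 2 of them also in si*Wdr5* and 1 in si*Bard1*, against 25.4%, 18.3% and 8.67% of all genes. *Adamtsl5*, a microfibril-associated member, had 7.19 and 7.55 CPM in the nt control, 8.04 and 7.97 in si*Wdr5*, 20.5 and 32.4 in si*Brca1* and 12.5 and 9.96 in si*Bard1*. Both si*Brca1* libraries stood above the other 6, and it rose by 1.80 (SE 0.20, adjusted p = 1.88e-05) there, with 0.12 (SE 0.20, adjusted p = 0.681) in si*Wdr5* and 0.60 (SE 0.20, adjusted p = 0.0617) in si*Bard1*. *Adamtsl3* had 3.24 and 4.47 CPM in the nt control, 9.09 and 8.50 in si*Wdr5*, 8.99 and 9.91 in si*Brca1* and 7.22 and 6.74 in si*Bard1* and rose by 1.21 (SE 0.20, adjusted p = 4.90e-04), 1.31 (SE 0.20, adjusted p = 1.44e-04) and 0.87 (SE 0.20, adjusted p = 0.0112) in si*Wdr5*, si*Brca1* and si*Bard1*. *Adamtsl1* had 32.1 and 31.4 CPM in the nt control, 70.5 and 69.2 in si*Wdr5*, 54.3 and 47.3 in si*Brca1* and 37.4 and 40.9 in si*Bard1* and rose by 1.14 (SE 0.11, adjusted p = 1.36e-05) in si*Wdr5* and 0.67 (SE 0.11, adjusted p = 3.33e-04) in si*Brca1*. *Adamtsl4*, which binds fibrillin-1, had 47.03 and 46.7 CPM in the nt control, 56.5 and 54.7 in si*Wdr5*, 69.5 and 58.5 in si*Brca1* and 55.6 and 49.97 in si*Bard1* and rose by 0.45 (SE 0.12, adjusted p = 0.00621) in si*Brca1*.

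Some of these day 3 calls depended on the settings. In si*Bard1* 6 of the 15 were lost in 5 or more of 15 alternatives, namely *Adamts20* (9), *Adamts9* (7), *Timp1*, *Adam23* and *Adamts6* (6 each) and *Mmp17* (5). In si*Wdr5* these were *Adamts6* (7) and *Adam8* (5) of 30 calls, and in si*Brca1* *Adam10* and *Adamts7* (6 each) of 29.

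The knockdowns were also compared with each other at day 3. Between si*Brca1* and si*Wdr5*, 4 members were higher and 10 lower in si*Brca1*, where 10.2% of all genes were higher and 5.47% lower. The lower ones were led by *Mmp13*, −2.65 (SE 0.31, adjusted p = 1.47e-04), *Mmp3*, −2.09 (SE 0.26, adjusted p = 2.26e-04), *Adamts15*, −1.70 (SE 0.20, adjusted p = 1.85e-04), *Adam22*, −1.34 (SE 0.23, adjusted p = 0.00193), and *Adamts2*, −0.98 (SE 0.12, adjusted p = 2.23e-04). The 4 higher ones were *Adamtsl5*, 1.69 (SE 0.20, adjusted p = 2.11e-04), *Mmp11*, 1.17 (SE 0.21, adjusted p = 0.00239), *Adam19*, 0.42 (SE 0.12, adjusted p = 0.0274), and *Mmp28*, 0.42 (SE 0.13, adjusted p = 0.0469), and the last pair of calls was lost in 5 and 9 of 15 alternatives. The total of 14 was 7 to 21 when 1 library was left out.

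Between si*Wdr5* and si*Bard1*, 15 members were higher in si*Wdr5* and none lower, against 4.85% and 3.78% of all genes, and the 15 became 6 to 11 without 1 library. *Mmp13*, 2.69 (SE 0.31, adjusted p = 2.22e-04), *Adamts15*, 1.56 (SE 0.20, adjusted p = 4.71e-04), and *Adamts2*, 1.11 (SE 0.12, adjusted p = 1.71e-04), differed here as well, so that their rise in si*Wdr5* exceeded the change in both other knockdowns. Between si*Brca1* and si*Bard1*, whose proteins form a heterodimer, 19 members were higher in si*Brca1* and 1 was lower, against 13.1% and 8.33%. *Mmp11*, 1.54 (SE 0.21, adjusted p = 0.00373), and *Adamtsl5*, 1.20 (SE 0.20, adjusted p = 0.00420), led among the well-counted members. This count fell to 0 without si*Bard1* replicate 2, to 0 when the spread was moderated without a trend, and to 6 with the 4 libraries of both groups alone. Without that replicate no gene of the 14028 passed, while the median over members was 0.22, in place of 0.25, and 31 of the 46 values were above 0, in place of 29. *Mmp3*, which fell in both knockdowns, differed between them by −0.57 (SE 0.26, adjusted p = 0.129).

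In the nt control, 12 members rose and 14 fell from day 3 to day 6, against 19.0% and 27.1% of all genes. With an absolute log2 fold change above 1, 16 passed, against 11.8% of all genes. The 5 largest rises were those of *Mmp3*, *Mmp10*, *Adam8*, *Mmp13* and *Mmp2*. *Mmp3* had 11.3 and 7.55 CPM at day 3 and 192 and 127 CPM at day 6, a change of 4.08 (SE 0.28, adjusted p = 1.42e-07). *Mmp10* had 0.466 and 0.479 CPM at day 3 and 4.62 and 5.16 CPM at day 6 (3.37 (SE 0.37, adjusted p = 6.65e-06)), and *Mmp13* had 5.22 and 3.96 CPM at day 3 and 20.1 and 29.6 CPM at day 6 (2.42 (SE 0.41, adjusted p = 2.19e-04)). At day 3 *Mmp10* rested on 5 and 6 reads, and with 1 CPM added to each value its change was 2.10, below that of *Adam8*. *Adam19*, the other member with an AP-1 element in the promoter window, fell. *Adam8* had 8.65 and 7.61 CPM at day 3 and 55.2 and 50.8 CPM at day 6 (2.71 (SE 0.22, adjusted p = 6.34e-07)). *Mmp2* had 131 and 123 CPM at day 3 and 326 and 316 CPM at day 6 (1.33 (SE 0.14, adjusted p = 5.68e-06)).

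*Mmp19*, 1.29 (SE 0.13, adjusted p = 4.31e-06), *Adamts14*, 1.21 (SE 0.17, adjusted p = 4.83e-05), *Adamts2*, 1.20 (SE 0.12, adjusted p = 2.29e-06), *Adam33*, 1.08 (SE 0.29, adjusted p = 0.00670), *Adamtsl5*, 0.91 (SE 0.21, adjusted p = 0.00205), *Adam23*, 0.44 (SE 0.15, adjusted p = 0.0236), and *Mmp14*, 0.40 (SE 0.13, adjusted p = 0.0191), also rose. The 5 largest falls were those of *Adamts20*, *Adam12*, *Adamts5*, *Adamtsl3* and *Timp3*. *Adamts20* had 14.1 and 15.2 CPM at day 3 and 2.54 and 3.64 CPM at day 6 (−2.27 (SE 0.32, adjusted p = 5.23e-05)). *Adam12* had 34.8 and 38.8 CPM at day 3 and 7.97 and 9.86 CPM at day 6 (−2.05 (SE 0.30, adjusted p = 6.79e-05)). *Adamts5* had 85.1 and 86.4 CPM at day 3 and 23.6 and 21.4 CPM at day 6 (−1.93 (SE 0.18, adjusted p = 1.95e-06)). *Adamtsl3* had 3.24 and 4.47 CPM at day 3 and 1.50 and 0.854 CPM at day 6 (−1.75 (SE 0.37, adjusted p = 0.00120)). *Timp3* had 96.3 and 106 CPM at day 3 and 38.7 and 27.2 CPM at day 6 (−1.64 (SE 0.22, adjusted p = 3.08e-05)). *Timp1* fell by less, −0.61 (SE 0.15, adjusted p = 0.00363), and *Timp2* was at 0.18 (SE 0.14, adjusted p = 0.301). The other 8 that fell were *Mmp16*, −1.34 (SE 0.27, adjusted p = 8.69e-04), *Adamtsl1*, −1.30 (SE 0.19, adjusted p = 6.29e-05), *Mmp28*, −0.87 (SE 0.21, adjusted p = 0.00264), *Adam19*, −0.77 (SE 0.12, adjusted p = 1.25e-04), *Adamtsl4*, −0.76 (SE 0.14, adjusted p = 5.21e-04), *Adamts12*, −0.73 (SE 0.13, adjusted p = 2.88e-04), *Adam9*, −0.54 (SE 0.15, adjusted p = 0.00824), and *Adam10*, −0.41 (SE 0.16, adjusted p = 0.0477), the last of which was lost in 8 of 13 alternatives. Over the same interval all 4 smooth muscle markers fell and 7 of the 8 epithelial markers rose, while *Col1a1* (−1.83) and *Col1a2* (−1.10) fell and the small proteoglycan genes *Dcn* (3.25) and *Lum* (4.19) rose.

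At day 6, 19 members were higher in si*Wdr5* than in the nt control and 1 was lower, against 16.1% and 5.7% of all genes. With an absolute log2 fold change above 1, 10 passed, against 4.83% of all genes. The median over members was 0.47 and over all genes 0.08. Without si*Wdr5* replicate 2, the most deeply sequenced library, no member passed, and over all genes 32 were higher and 6 lower, in place of 2260 and 800. The median over members was then 0.41, and 36 of the 46 values were above 0, as with all libraries. Without nt control replicate 1 or 2 there were 11 and 6 members. Of the 19, 17 had also risen at day 3, in a comparison with other control libraries. How often this held over all genes was not counted. *Timp3* had 38.7 and 27.2 CPM in the nt control, 145 and 175 in si*Wdr5*, 63.9 and 85.03 in si*Brca1* and 89.2 and 49.7 in si*Bard1*. Both si*Wdr5* libraries were above the other 6, and its change was 2.29 (SE 0.26, adjusted p = 0.00210). *Timp2* had 532 and 423 CPM in the nt control, 915 and 1145 in si*Wdr5*, 759 and 821 in si*Brca1* and 757 and 734 in si*Bard1* (1.11 (SE 0.17, adjusted p = 0.00383) in si*Wdr5*). *Timp1* had 78.9 and 70.2 CPM in the nt control, 157 and 191 in si*Wdr5*, 109 and 91.6 in si*Brca1* and 141 and 97.2 in si*Bard1* (1.22 (SE 0.18, adjusted p = 0.00362)).

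*Adam12* showed the largest change at this day. It had 7.97 and 9.86 CPM in the nt control, 45.5 and 60.1 in si*Wdr5*, 9.42 and 19.8 in si*Brca1* and 22.8 and 11.2 in si*Bard1*, with 2.56 (SE 0.37, adjusted p = 0.00362) in si*Wdr5*. *Adamtsl3* had 1.50 and 0.854 CPM in the nt control, 4.48 and 6.24 in si*Wdr5*, 2.30 and 3.78 in si*Brca1* and 2.84 and 1.17 in si*Bard1* (2.23 (SE 0.46, adjusted p = 0.0102)). *Adamtsl1* had 11.9 and 13.9 CPM in the nt control, 35.2 and 56.2 in si*Wdr5*, 16.5 and 19.8 in si*Brca1* and 26.2 and 19.3 in si*Bard1* (1.79 (SE 0.23, adjusted p = 0.00325)). *Mmp16* had 5.33 and 3.57 CPM in the nt control, 11.9 and 15.4 in si*Wdr5*, 5.43 and 11.3 in si*Brca1* and 9.01 and 7.86 in si*Bard1* (1.63 (SE 0.33, adjusted p = 0.00960)). These 4 genes fell in the nt control between the days, and both si*Wdr5* libraries stood above the other 6 at day 6. *Adamts15* had 7.09 and 9.15 CPM in the nt control, 15.5 and 24.1 in si*Wdr5*, 3.69 and 6.21 in si*Brca1* and 6.08 and 4.85 in si*Bard1* (1.26 (SE 0.29, adjusted p = 0.0155)), and *Adamts5* had 23.6 and 21.4 CPM in the nt control, 46.7 and 58.8 in si*Wdr5*, 23.98 and 41.4 in si*Brca1* and 31.3 and 28.3 in si*Bard1* (1.22 (SE 0.22, adjusted p = 0.00746)). *Adamtsl4* had 27.7 and 27.6 CPM in the nt control, 47.8 and 68.1 in si*Wdr5*, 35.1 and 31.4 in si*Brca1* and 40.6 and 41.9 in si*Bard1* (1.04 (SE 0.16, adjusted p = 0.00420)). *Mmp28* had 10.5 and 11.2 CPM in the nt control, 17.4 and 23.6 in si*Wdr5*, 10.4 and 13.2 in si*Brca1* and 18.4 and 11.1 in si*Bard1* (0.90 (SE 0.25, adjusted p = 0.0290)). Neither *Adamtsl4* nor *Mmp28* had passed in si*Wdr5* at day 3.

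The other 8 that rose at day 6 were *Adamts9*, 1.00 (SE 0.21, adjusted p = 0.0109), *Adam9*, 0.83 (SE 0.16, adjusted p = 0.00806), *Adamts12*, 0.78 (SE 0.14, adjusted p = 0.00672), *Adamts1*, 0.68 (SE 0.16, adjusted p = 0.0147), *Adam19*, 0.61 (SE 0.12, adjusted p = 0.0100), *Adam15*, 0.61 (SE 0.16, adjusted p = 0.0277), *Adamts2*, 0.47 (SE 0.12, adjusted p = 0.0207), and *Adam23*, 0.47 (SE 0.14, adjusted p = 0.0361). *Mmp3* was the member that fell. It had 192 and 127 CPM in the nt control, 94.99 and 78.7 in si*Wdr5*, 125 and 132 in si*Brca1* and 116 and 209 in si*Bard1* (−0.85 (SE 0.26, adjusted p = 0.0396) in si*Wdr5*), and this call was lost in 5 of 15 alternatives. *Mmp2* and *Mmp14* did not pass at day 6, with −0.14 (SE 0.14, adjusted p = 0.515) and 0.41 (SE 0.14, adjusted p = 0.0630). *Mmp10* and *Mmp13*, both raised by si*Wdr5* at day 3, were at 0.30 (SE 0.28, adjusted p = 0.456) and 0.21 (SE 0.41, adjusted p = 0.743). The fibroblast markers summed to 5103 to 5339 CPM in the nt control and to 9253 to 12716 CPM in si*Wdr5* at this day, while 2 of these markers, *Dcn* and *Lum*, were at −0.52 (SE 0.19, adjusted p = 0.0738) and −0.53 (SE 0.31, adjusted p = 0.231) in si*Wdr5*. The part of these shifts in the changes of the members was not tested. Calls lost in 5 or more of 15 alternatives also included those of *Adam23* (7), *Adam15*, *Adamts1* and *Adamts2* (5 each).

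In si*Brca1* at day 6 no member passed in either direction, with 0.0% of all genes called higher and 0.0% lower. For si*Bard1* it was also none, with 0.0784% of all genes higher and 0.0% lower. Unadjusted p-values under 0.05 were found for 11 members in si*Brca1* and 15 in si*Bard1*, and limma-voom on recovered reads also called none. The share of all genes at this unadjusted limit was not counted, so the 11 and 15 have no background beside them. A model of all 16 libraries called 2 members in si*Brca1* (1 higher, 1 lower) and 4 in si*Bard1* (all higher). Over all 14028 genes that model called 18 higher and 3 lower in si*Brca1*, and 181 higher and 19 lower in si*Bard1*. The TIMPs had the same sign as at day 3 in both, with 1.18 (SE 0.26, adjusted p = 0.330) for *Timp3* in si*Brca1* and 1.04 (SE 0.26, adjusted p = 0.171) in si*Bard1*. In si*Brca1* *Timp2* was at 0.73 (SE 0.17, adjusted p = 0.330) and *Timp1* at 0.42 (SE 0.18, adjusted p = 0.599). A p that misses the threshold does not show that the levels were alike.

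The change against the control was then compared between the days. In si*Brca1* it differed for 19 members: 17 were lower at day 6 than at day 3 relative to the control and 2 were higher, against 10.3% of all genes in each direction. This count was 9 to 18 with 1 library left out. The largest differences were in *Mmp17*, −1.94 (SE 0.38, adjusted p = 0.00405), *Adamtsl5*, −1.88 (SE 0.29, adjusted p = 0.00226), *Mmp11*, −1.76 (SE 0.32, adjusted p = 0.00308), and *Mmp10*, −1.59 (SE 0.52, adjusted p = 0.0407). These are genes that rose at day 3 and stood at −0.28, −0.07, 0.27 and 0.14 on the log2 scale at day 6. *Mmp17* had 3.58 and 2.93 CPM in the nt control, 4.96 and 4.03 in si*Wdr5*, 2.39 and 2.97 in si*Brca1* and 2.69 and 1.74 in si*Bard1* at day 6. *Mmp11* had 10.9 and 11.3 CPM in the nt control, 13.3 and 18.6 in si*Wdr5*, 11.8 and 15.2 in si*Brca1* and 12.02 and 11.7 in si*Bard1*, and *Adamtsl5* had 12.9 and 14.9 CPM in the nt control, 14.3 and 16.1 in si*Wdr5*, 15.5 and 11.2 in si*Brca1* and 13.7 and 14.6 in si*Bard1*. *Adamts6*, −1.36 (SE 0.26, adjusted p = 0.00371), *Adam19*, −1.10 (SE 0.17, adjusted p = 0.00226), *Mmp2*, −0.97 (SE 0.20, adjusted p = 0.00571), *Adam23*, −0.94 (SE 0.21, adjusted p = 0.00739), *Adamts2*, −0.90 (SE 0.16, adjusted p = 0.00311), and *Mmp14*, −0.89 (SE 0.19, adjusted p = 0.00586), were also lower. *Adam15*, *Adam9*, *Mmp23*, *Mmp19*, *Adamts4*, *Adamts12* and *Adamts10* made up the rest, between −0.87 and −0.61. The 2 that went the other way, *Mmp3*, 1.48 (SE 0.39, adjusted p = 0.0159), and *Adamts20*, 1.41 (SE 0.46, adjusted p = 0.0398), were among the 4 that had fallen at day 3. Neither passed by limma-voom, and the calls were lost in 4 and 8 of 17 alternatives. Those of *Adamts10* (8 of 17), *Mmp10* (8 of 16), *Adamts4* and *Mmp23* (5 of 17 each) were also lost in 5 or more. None of the TIMPs passed this test, with −0.32 (SE 0.31, adjusted p = 0.499) for *Timp3*, −0.54 (SE 0.20, adjusted p = 0.0653) for *Timp2* and −0.18 (SE 0.21, adjusted p = 0.587) for *Timp1*.

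**Figure D5:**
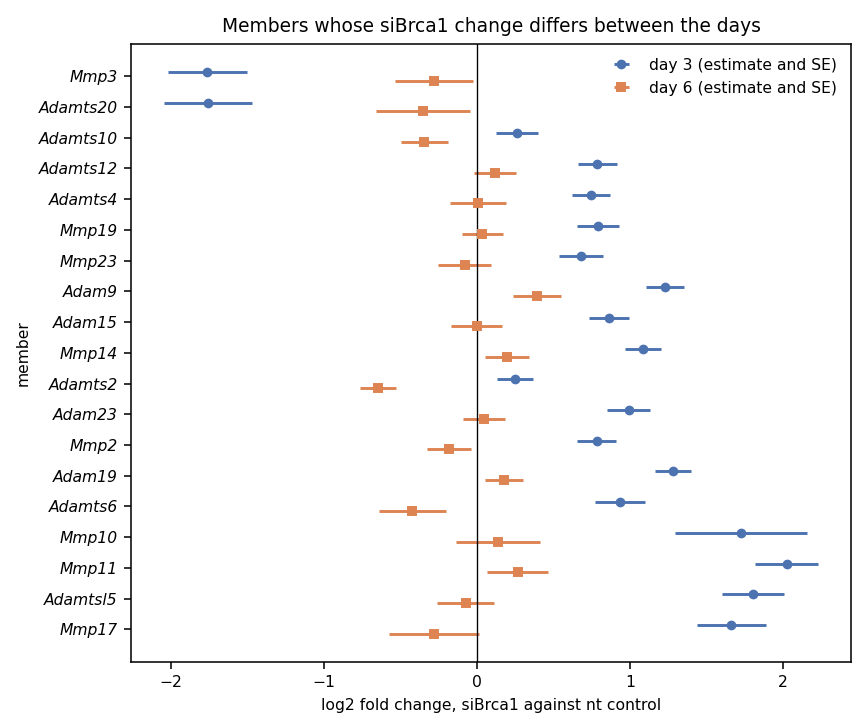
Log2 fold change of si*Brca1* against the nt control at day 3 (circles) and day 6 (squares), with the standard error of each estimate, for the 19 members whose change differed between the days. *Mmp17*, *Adamtsl5* and *Mmp11* lie at 1.66 to 2.02 at day 3 and between −0.28 and 0.27 at day 6.

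In si*Wdr5* the change differed between the days for 4 members, 2 in each direction, against 3.4% and 1.03% of all genes. *Adamts20*, 1.91 (SE 0.46, adjusted p = 0.0367), and *Adamtsl4*, 0.80 (SE 0.20, adjusted p = 0.0426), were higher at day 6 relative to the control, and *Mmp10*, −2.02 (SE 0.52, adjusted p = 0.0433), and *Adamts2*, −0.76 (SE 0.16, adjusted p = 0.0293), were lower. *Adamts20* had 2.54 and 3.64 CPM in the nt control, 5.03 and 3.04 in si*Wdr5*, 2.48 and 2.29 in si*Brca1* and 3.07 and 2.59 in si*Bard1* at day 6, when all 8 libraries were at or below 5.03 CPM. With any 1 library left out no more than 1 of the 4 passed. The TIMPs gave 0.44 (SE 0.31, adjusted p = 0.412) for *Timp3*, 0.02 (SE 0.20, adjusted p = 0.965) for *Timp2* and 0.37 (SE 0.21, adjusted p = 0.319) for *Timp1*. In si*Bard1* no member passed (9 at an unadjusted p under 0.05, none by limma-voom), with 0.0214% and 0.0285% of all genes called. The share of all genes at the unadjusted limit was not counted.

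In the nt control the summed levels of the TIMPs and of the MMPs per kilobase of exon moved in opposite directions over the time course. The TIMP sum was the higher one at day 3 and the MMP sum at day 6. There the 4 TIMP genes summed to 242 and 254 CPM per kilobase at day 3 and to 230.4 and 191 at day 6, and the 16 MMP genes to 108 and 106 at day 3 and to 296 and 256 at day 6. The ratio of TIMPs to MMPs was 2.25 and 2.39 in the day 3 control libraries, 0.778 and 0.746 at day 6, and 1.77 and 1.98 in si*Wdr5* at day 6. In si*Brca1* at day 6 it was 1.27 and 1.22, and in si*Bard1* 1.60 and 1.00. All 6 knockdown libraries of day 6 thus lay above both control libraries and below all 8 libraries of day 3. These sums are dominated by *Timp1*, *Timp2*, *Mmp2*, *Mmp14* and, at day 6, *Mmp3*, and count transcripts, not active enzyme.

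A list of genes that activate, hold or inhibit these proteases was counted in the same way. Of its 26 tested genes that are not members, 18 rose and 2 fell in si*Wdr5* at day 3, 16 rose and 3 fell in si*Brca1*, and 9 rose and 2 fell in si*Bard1*. Over all genes 18.3%, 25.4% and 8.67% rose and 16.8%, 21.8% and 5.87% fell in the same order. The medians over the list were 0.54, 0.49 and 0.24. *Plau*, which encodes the plasminogen activator urokinase, had 14.4 and 21.01 CPM in the nt control, 40.2 and 46.3 in si*Wdr5*, 52.5 and 58.03 in si*Brca1* and 45.8 and 40.3 in si*Bard1* (1.31 (SE 0.16, adjusted p = 6.21e-05), 1.66 (SE 0.16, adjusted p = 6.23e-06) and 1.30 (SE 0.16, adjusted p = 3.10e-04)). Its receptor gene *Plaur* gave 1.27 (SE 0.11, adjusted p = 5.39e-06), 1.51 (SE 0.11, adjusted p = 1.11e-06) and 0.95 (SE 0.11, adjusted p = 2.51e-04). *Bmp1*, the procollagen C-proteinase, gave 1.04 (SE 0.10, adjusted p = 1.35e-05), 0.70 (SE 0.10, adjusted p = 1.29e-04) and 0.49 (SE 0.10, adjusted p = 0.00880). *Reck*, a membrane-anchored MMP inhibitor, gave 0.58 (SE 0.19, adjusted p = 0.0267), 1.18 (SE 0.19, adjusted p = 1.98e-04) and 0.39 (SE 0.19, adjusted p = 0.168). *Tspan14*, a tetraspanin partner of ADAM10, fell in each knockdown (−0.59 (SE 0.13, adjusted p = 0.00381), −0.96 (SE 0.13, adjusted p = 7.14e-05) and −0.65 (SE 0.13, adjusted p = 0.00637)), as did *Papln* (−0.89 (SE 0.24, adjusted p = 0.0121), −0.79 (SE 0.24, adjusted p = 0.0158) and −1.08 (SE 0.24, adjusted p = 0.0113)).

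Of 13 tested substrates of ADAM and ADAMTS proteases, 6 rose in si*Wdr5*, 5 in si*Brca1* and 4 in si*Bard1*, and none fell. *Cd44* is counted both here and in the list of the paragraph before. Over all genes at day 3, 18.3%, 25.4% and 8.67% rose and 16.8%, 21.8% and 5.87% fell in the same order. *Hbegf*, an EGF receptor ligand shed by ADAMs, had 10.3 and 10.2 CPM in the nt control, 18.9 and 20.8 in si*Wdr5*, 23.9 and 27.2 in si*Brca1* and 19.1 and 17.7 in si*Bard1* (0.95 (SE 0.14, adjusted p = 2.20e-04), 1.31 (SE 0.14, adjusted p = 1.16e-05) and 0.84 (SE 0.14, adjusted p = 0.00187)). *Vcan* (versican), the substrate of ADAMTS1, ADAMTS5 and ADAMTS9, gave 1.10 (SE 0.12, adjusted p = 2.37e-05), 0.42 (SE 0.12, adjusted p = 0.0104) and 0.41 (SE 0.12, adjusted p = 0.0343). *Notch1*, a substrate of ADAM10, was at −0.07 (SE 0.12, adjusted p = 0.653), −0.26 (SE 0.12, adjusted p = 0.0859) and −0.11 (SE 0.12, adjusted p = 0.562).

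The 9 members below the limit for testing were *Adam5*, *Adamts8*, *Adamts16*, *Adamts18*, *Mmp9*, *Mmp24*, *Mmp25*, *Mmp27* and *Timp4*. Their levels were between 0.136 and 4.20 CPM in every library. *Mmp9*, whose highest levels were in si*Wdr5* at day 3 and the nt control at day 6, fell under the limit on the mean of all libraries.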

How the data were processed

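RNA from whole cultures was depleted of ribosomal RNA and sequenced paired-end in 16 libraries (8 groups of 2). The authors aligned the reads to mm10 with STAR 2.5.2b, and deposited log2 CPM values from edgeR 3.20.9, which carry a small prior count and a scaling between libraries. The counter, the annotation and the use of strand are not given in the sources used here. The values were turned back into reads, all of which came out whole (100%), giving 11169738 to 26832534 reads per library. CPM in the text is 2 to the power of the deposited value and so includes the prior, which alone stands at 0.136 CPM. Intervals and limits from reads cover counting error only.

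The 14028 genes whose log2 CPM averaged at least 0 over all libraries were tested with limma 3.58.1 in R 4.3.3 on the deposited log2 CPM, with 1 mean per group, a trend on expression and two-sided p-values, adjusted over these genes (Benjamini-Hochberg). Knockdowns were compared with the nt control, and with each other at day 3, in a model of the 8 libraries of a day. The nt control course and differences between days used all 16. A gene passed at adjusted p < 0.05, and the study's added limit of an absolute log2 fold change above 1 is given beside it. A count model was not used because the deposited unit is log2. The fit was checked on simulated data. Alternatives were other filters, pseudocounts, scalings, sets of libraries, no trend, limma-voom on recovered reads, a replicate block and leaving out each library.

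The members and gene lists were chosen with earlier results of these data known. Each tested member is named at least once, and values are given for those past a log2 fold change of 1 at day 3 (at most 8 each way), the TIMPs, 10 preset proteases, the members with most CPM, the largest changes of the nt control, and those that passed at day 6 or differed between days. ADAMs were grouped by general knowledge. The values of a gene that is no member but is counted in a list are not reported here. Gene positions, exon lengths and overlaps come from GENCODE vM21 (mm10), with all 55 members matched, and promoters from RefSeq (GRCm38.p6), with 35 matched.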

Additional observations from a re-analysis of the deposited data

Results flagged for a closer look

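With 2 libraries in every group, no group was large enough to look for a single library far from the rest. The results below are changes against the nt control that differed between day 3 and day 6 in the test of that difference (limma, 16 libraries, adjusted p < 0.05 over 14028 genes), and each value is the log2 fold change at day 6 minus that at day 3. The cause of these differences was not tested.

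In si*Brca1* the change was lower at day 6 for *Mmp17* (−1.94), *Adamtsl5* (−1.88), *Mmp11* (−1.76), *Mmp10* (−1.59), *Adamts6* (−1.36) and *Adam19* (−1.10). It was also lower for *Mmp2* (−0.97), *Adam23* (−0.94), *Adamts2* (−0.90), *Mmp14* (−0.89), *Adam15* (−0.87) and *Adam9* (−0.83). Smaller differences were those of *Mmp23* (−0.76), *Mmp19* (−0.75), *Adamts4* (−0.74), *Adamts12* (−0.67) and *Adamts10* (−0.61). The change was higher at day 6 for *Mmp3* (1.48) and *Adamts20* (1.41).

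In si*Wdr5* the change was higher at day 6 for *Adamts20* (1.91) and *Adamtsl4* (0.80), and lower for *Mmp10* (−2.02) and *Adamts2* (−0.76). *Adamts20* fell in the nt control between the days from 14.1 and 15.2 CPM to 2.54 and 3.64 CPM, and was at 4.68 and 5.38 CPM in si*Wdr5* at day 3. *Brca1* itself was at 37.5 and 19.4 CPM in si*Brca1* at day 3 against 82.4 and 77.98 in the nt control, and at 35.9 and 40.1 against 33.2 and 42.6 at day 6.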

How the results depend on the processing

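Of 192 calls of a member in a comparison, none changed direction in 2867 pairs of a call and an alternative, and 2439 kept their side of the threshold. The 428 lost calls came mainly from leaving out 1 library (272 of 860) and from moderation without a trend (57 of 192). The number of members passing was 30, 29 and 26 for si*Wdr5* and si*Brca1* at day 3 and for the nt control from day 3 to day 6, and only the added limit on the fold change moved these by over 1.5 times (11, 13 and 16). That limit also gave 2 for si*Bard1* at day 3, 10 for si*Wdr5* at day 6, 6 for si*Brca1* against si*Wdr5*, 3 for si*Brca1* against si*Bard1*, 5 for si*Wdr5* against si*Bard1*, and 2 and 8 for the difference between the days in si*Wdr5* and si*Brca1*. With no filter, the 15 of si*Bard1* at day 3 became 8 and the 20 of si*Brca1* against si*Bard1* became 13. Calls over all genes fell too. In si*Bard1* at day 3 they went from 1216 higher and 823 lower to 643 and 238. For si*Brca1* against si*Bard1* they went from 1840 higher and 1168 lower to 992 and 528. With no trend, 8 were left in si*Bard1* at day 3, 9 for si*Brca1* against si*Wdr5*, 0 for si*Brca1* against si*Bard1*, 9 for si*Wdr5* against si*Bard1*, and 0 of 4 for the difference between the days in si*Wdr5*. Over all genes, no trend left 518 higher and 187 lower in si*Bard1* at day 3, and 31 and 36 for si*Brca1* against si*Bard1*. A model of all 16 libraries gave 9 for si*Brca1* against si*Wdr5*, 9 for si*Wdr5* against si*Bard1*, and 2 and 4 for si*Brca1* and si*Bard1* at day 6, where the day 6 libraries alone gave 0. Over all genes that model called 18 higher and 3 lower in si*Brca1* at day 6, and 181 higher and 19 lower in si*Bard1*. A model of the 4 libraries of both groups gave 6 for si*Brca1* against si*Bard1*. For the difference between the days in si*Bard1*, centring on the median gene gave 1 in place of 0. The cause of these shifts was not tested.

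Leaving out 1 library at a time gave 4 to 9 for si*Bard1* at day 3, 0 to 20 for si*Wdr5* at day 6, 0 to 1 for si*Bard1* at day 6, 7 to 21 for si*Brca1* against si*Wdr5*, 0 to 22 for si*Brca1* against si*Bard1*, 6 to 11 for si*Wdr5* against si*Bard1*, and 0 to 1 and 9 to 18 for the difference between the days in si*Wdr5* and si*Brca1*. In these fits the lone library of a group is assumed to vary like those of the other groups. The libraries whose removal ended a count were si*Wdr5* replicate 2 at day 6 (20 members to 0) and si*Bard1* replicate 2 at day 3 (20 members to 0 for si*Brca1* against si*Bard1*).

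Replicates of different groups share the numbers 1 and 2, and deviations of same-numbered libraries were nearly unrelated (mean r 0.02 at day 3 and 0.11 at day 6 over 6 pairs of groups), so the numbers were not taken as a pairing. With the replicate number as a block, 30 and 29 members passed in si*Wdr5* and si*Brca1* at day 3, 17 in si*Bard1* and 21 in si*Wdr5* at day 6, and 1 passed for the difference between the days in si*Bard1*. The depth limits members under about 1 CPM, where a few reads separate the groups, as for *Mmp10* at day 3.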

Other observations

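Of the members under the limit for testing, 3 passed in at least 1 comparison when every gene of the table was tested. These genes were chosen after their values were seen. *Mmp9*, the gelatinase best known from leukocytes, had 0.532 and 0.364 CPM in the nt control, 1.44 and 1.73 in si*Wdr5*, 0.579 and 0.629 in si*Brca1* and 0.487 and 0.448 in si*Bard1* at day 3, and 1.42 and 4.20 CPM in the nt control, 0.481 and 0.785 in si*Wdr5*, 0.917 and 0.945 in si*Brca1* and 0.362 and 1.22 in si*Bard1* at day 6. It rose in si*Wdr5* at day 3, 1.84 (SE 0.32, adjusted p = 0.00648), and in the nt control from day 3 to day 6, 2.47 (SE 0.54, adjusted p = 0.00155), where nt replicate 2 alone held 51 reads. At day 6 it was lower in si*Wdr5* by an estimate that did not pass, −1.99 (SE 0.63, adjusted p = 0.0548), and the difference between the days passed, −3.83 (SE 0.76, adjusted p = 0.0253). At day 3 *Mmp9* also passed in si*Brca1* against si*Wdr5*, −1.39 (SE 0.32, adjusted p = 0.0391), and in si*Wdr5* against si*Bard1*, 1.76 (SE 0.32, adjusted p = 0.0310). *Adamts16* had 0.466 and 0.707 CPM in the nt control, 1.44 and 1.20 in si*Wdr5*, 0.358 and 0.347 in si*Brca1* and 0.277 and 0.344 in si*Bard1* at day 3, and rose in si*Wdr5*, 1.20 (SE 0.34, adjusted p = 0.0370). It also passed in si*Brca1* against si*Wdr5*, −1.90 (SE 0.34, adjusted p = 0.0192), and in si*Wdr5* against si*Bard1*, 2.09 (SE 0.34, adjusted p = 0.0227). *Adamts8* had no reads in either si*Brca1* library at day 3, where the 2 nt control libraries had 5 and 6 (a count of 0 allows up to 3 reads, or 0.115 to 0.260 CPM over the libraries). It passed as lower in that comparison, −1.79 (SE 0.36, adjusted p = 0.00702). In the nt control it rose from day 3 to day 6, 1.42 (SE 0.44, adjusted p = 0.0166).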
